A study of Mus musculus with 8 samples.

Results

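Rab GTPases are small membrane-bound switches that direct vesicle traffic, and their transcripts were compared here between young adult and aged mouse brain. The members were the protein-coding genes with a symbol made of Rab, a number and at most 1 letter and 1 further digit, which gave 59 of the 22430 genes listed. RNA came from C57Bl/6JRj mice, all male, 4 of them 6 months old (6m) and 4 of them 24 months old (24m), with no allele or treatment named for either age. The labels call the tissue whole brain, and the methods of the study describe a homogenised hemisphere, so every library mixes all brain cell types and regions. Each library came from 1 animal and was sequenced after poly(A) selection. The question was which Rab genes, organelle classes and paralogs differ in transcript abundance between the ages.

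Each Rab protein marks a particular membrane, such as the Golgi, the early endosome or the synaptic vesicle. Guanine nucleotide exchange factors (GEFs) load it with GTP, GTPase-activating proteins (GAPs) switch it off, and effectors such as tethers and motors read the active form. Rab proteins are anchored by lipids on cysteines near the C terminus, which are added by Rab geranylgeranyl transferase with the help of Rab escort proteins, and GDP dissociation inhibitors (GDIs) carry the inactive form through the cytosol. In brain, Rab3 proteins act at synaptic vesicles, Rab5 and Rab11 proteins in endosomal recycling of receptors, and Rab7 proteins in the route to the lysosome. Several Rab proteins are substrates of the kinase Lrrk2.

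Genes were compared between ages by the edgeR quasi-likelihood test with Benjamini-Hochberg adjustment over the 16730 genes that passed a low-count filter. A gene is said to be called where its adjusted p was 0.05 or less and its log2 fold change 0.58 or more in either direction, and levels are given as counts per 1000000 (CPM) with trimmed mean of M values (TMM) scaling. Total counts were 63460940 to 103462414 per library, of which 217795 to 384727 fell on Rab genes. Replicate 1 of 24m was the deepest library and stood apart: its mean Spearman rho was 0.980 with the other 24m libraries and 0.978 with the 6m libraries, while each other library correlated with its own age at 0.986 or more. Marker lists were checked for the cell types that a brain sample can hold, and no marker was at 0 in any library. Neuron markers summed to 5750 to 6351 CPM at 6m and to 6752 to 7308 CPM at 24m, with 2 of 10 called higher and 1 lower. Of 10 astrocyte markers 6 were called higher and 1 lower (sums of 2961 to 3895 and 2930 to 3900 CPM). Microglia and oligodendrocyte lists each had 3 higher and 0 lower of 10, with sums of 598.4 to 659.8 and 577.7 to 847 CPM for the first and 3494 to 4356 and 3791 to 4366 CPM for the second. Of 9 endothelial markers 1 was higher and 3 lower (92.1 to 133.8 and 57.3 to 83.4 CPM). The 5 blood markers were all called lower (5426 to 7605 CPM at 6m, 1242 to 4156 CPM at 24m). Choroid plexus markers (1779 to 3205 and 823 to 2256 CPM) had 2 called higher and 0 lower of 6, and so had B and plasma cell markers, whose sum was 69.2 to 76.3 CPM at 6m and 45.7 to 1159 CPM at 24m. Replicate 1 of 24m held the upper end of each of these sums at that age except the endothelial one, where it was lowest. The other 24m libraries reached at most 6884 CPM of neuron, 3172 of astrocyte, 689.4 of microglia and 4141 of oligodendrocyte markers. They had 1242 to 2123 CPM of blood, 823 to 1794 CPM of choroid plexus and 45.7 to 82.0 CPM of B and plasma cell markers. With replicate 1 of 24m left out, 2 choroid plexus markers were higher and 2 lower, and 1 B and plasma cell marker was higher and 2 lower. The part of cell composition in the results on Rab genes was not tested, and in bulk tissue fewer cells of a type and less RNA per cell cannot be told apart.

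Paralogs in this family have related but distinct coding sequences. Across the 22 paralog pairs compared below, identity of the aligned coding sequences was 52.1% to 77.5%, and the longest stretch shared without a mismatch was 11 to 38 bases. The last 30 coding bases, stop codon included, are shown for the paralogs with several of the largest differences between ages. They were read from the genome (GRCm39) along the canonical transcript, 5′ to 3′ on the coding strand. Capitals mark cysteine codons, which specify the residues that carry the lipid anchor.
Rab8a: accagcttcttccggTGCagtctcctgtga
Rab8b: accagtttcttccgcTGTtctctgctttga
Rab33a: gctaacggtaaagcctccTGTcctTGTtga
Rab33b: accaagcctgcggtgactTGCtggTGCtga
Rab9: aagcccaagccaaactcatctTGCTGTtga
Rab9b: ggctccaaagcaagttcttctTGTTGTtag
Rab5a: ccagccagaagccagTGTTGTagtaactga
Rab5b: cagaacaagagccagTGTTGTagcaactga
Rab5c: gccagccggagccagTGCTGCagcaactga
The Rab8 genes have 1 such codon within these bases and the others 2. Both Rab9 genes end in a pair of adjacent cysteine codons, the Rab33 genes have theirs separated by 1 codon, and the Rab5 genes have 2 further codons before the stop. Of these genes, Rab8a lies on chromosome 8 (72914772 to 72937750, plus strand), Rab5a on chromosome 17 (53786241 to 53815975, plus strand), Rab5c on chromosome 11 (100603932 to 100629041, minus strand) and Rab9 on chromosome X (165235408 to 165262863, minus strand). Positions of the others, all on GRCm39, are given where each is described.

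Of the 59 members, 58 passed the filter and were tested. Rab17, a recycling gene of polarised epithelia, did not, with at most 0.0869 CPM in a library. By edgeR, 18 Rab genes were called higher at 24m and 6 lower. The 24 called genes were 41.4% of those tested, against 43.6% of all genes, so Rab genes were not called more often than other genes. By direction, 18 of 58 were called higher where 25.3% of all genes were, and 6 of 58 lower where 18.3% of all genes were. The median log2 fold change was 0.16 over Rab genes and -0.0034 over all genes tested. Over Rab genes it was 0.380 with library totals, 0.087 with DESeq2 on quantile-normalised counts and 0.239 with the length trend removed. The ages did not overlap in 34 Rab genes, where 55.2% of all genes were separated in this way. In 21 of them every 24m library was above 6m and in 13 below, against 28.4% and 26.8% of all genes.

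The direction of the calls depended on scaling more than their number did. With library totals in place of TMM factors, 23 Rab genes were higher and 1 was lower, so 95.8% of the calls were higher instead of 75%. Under the same change the median of all genes moved from -0.0034 to 0.21 and the share of higher calls over all genes from 58.1% to 75.7%. Fold changes in the text are therefore relative to TMM scaling. No called Rab gene changed sign under any of the 22 alternatives run, and 15 of the 24 calls (14 higher and 1 lower) were kept under all of them except a stricter fold-change threshold. The only lower call among these was Rab24. A further 2, Rab39 and Rab7b, were not tested under a filter of 1 CPM.

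**Figure D1:**
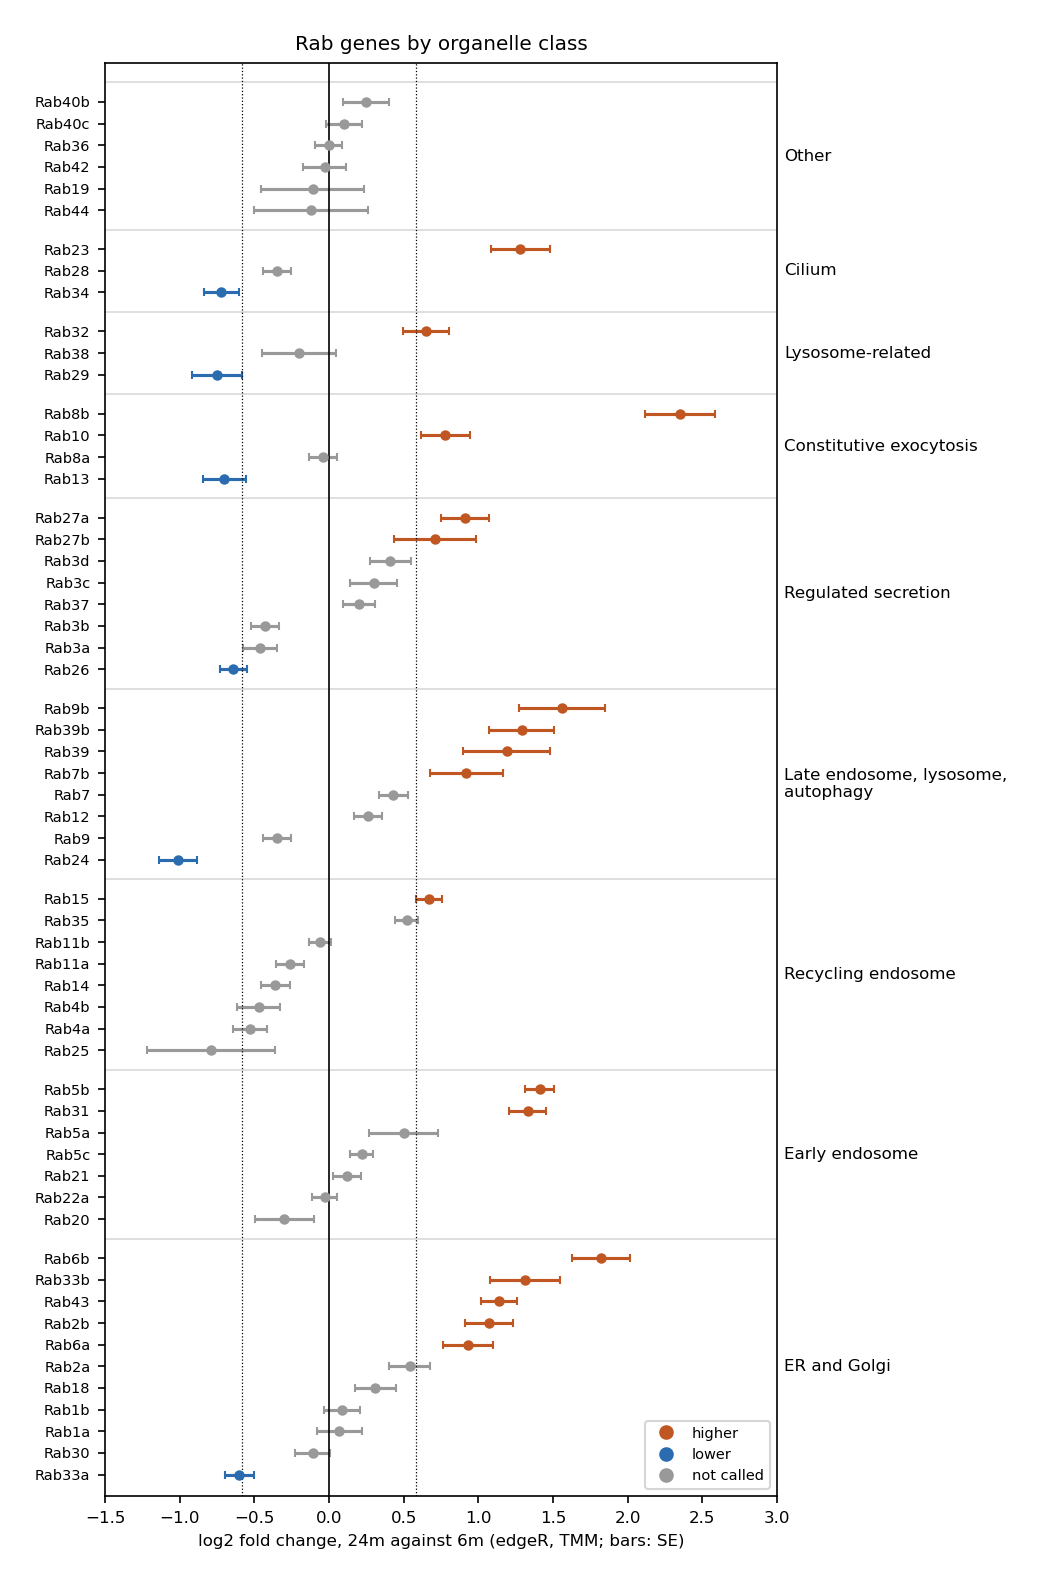
Log2 fold change of each of the 58 tested Rab genes at 24m against 6m (x axis), grouped by organelle class, with bars for the standard error from edgeR and dotted lines at the fold-change threshold of 0.58. The 18 genes called higher reach 2.35 (Rab8b), the 6 called lower reach -1.01 (Rab24), and no gene of the last class at the top passed either threshold.

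Levels of different genes were set side by side as CPM per kilobase of exons. The most abundant Rab transcript was Rab3a, the synaptic vesicle Rab, at 431.8 ± 36.3 CPM per kilobase at 6m (SD, n = 4). Rab4b of the recycling endosome came next at 89.9, and Rab24, Rab1b and Rab11b had 53.7, 53.1 and 32.5 CPM per kilobase. This order depends on the length used, and by canonical transcript length Rab24 (155.8) was above Rab4b (147.3) and Rab11b was at rank 10. Rab24 and Rab1b differed by less than their spread at 6m. At 24m Rab3a was still first, while Rab24 went from rank 3 to rank 8 with 26.7 CPM per kilobase. At the other end, 7 members had a mean under 1 CPM: Rab7b, Rab17, Rab19, Rab25, Rab38, Rab39 and Rab44.

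Rab3a (chromosome 8, 71207238 to 71211333) had 1281, 1242, 1218 and 1459 CPM in 6m replicates 1 to 4 and 1112, 926.2, 911.2 and 819 CPM in 24m replicates 1 to 4. All 24m libraries were below all 6m libraries. The log2 fold change was -0.46 ± 0.11 (SE), with an edgeR adjusted p of 0.00545, so Rab3a passed the adjusted p and missed the fold-change threshold. With the length trend removed its log2 fold change was -0.12. As a share of all Rab counts, Rab3a held 35.2% ± 1.95 at 6m and 26.6% ± 2.60 at 24m (SD, n = 4 each), a ratio that needs no scaling factor. The summed level of the other Rab genes was 2384 ± 61.6 CPM at 6m and 2593 ± 47.6 CPM at 24m. Summed over the family, the direction depended on the denominator, at 3416 ± 102 and 3811 ± 84.0 CPM by library totals but 3684 ± 126 and 3535 ± 121 CPM after TMM scaling.

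Among the Rab genes of the endoplasmic reticulum and Golgi, 5 of 11 were called higher and 1 lower, where 25.3% and 18.3% of all genes were, and the median log2 fold change was 0.54. Their summed level was 515.8 ± 39.5 CPM at 6m and 759.7 ± 72.6 CPM at 24m. Rab6b (chromosome 9, 102988943 to 103062475), the neuron-enriched form of the Golgi Rab6, had 41.2, 59.9, 53.4 and 46.0 CPM at 6m and 116.4, 178.4, 193 and 220.9 CPM at 24m. The lowest 24m library, replicate 1, was above the highest of 6m. Its log2 fold change was 1.82 ± 0.19 (adjusted p = 8.33e-05 by edgeR), a 3.54-fold rise. Rab6a rose less, from 77.5 ± 14.5 to 147.4 ± 28.1 CPM (0.93 ± 0.17 on the log2 scale, adjusted p = 0.00111), and its exons overlap those of Mrpl48 on the other strand.

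Rab33b (chromosome 3, 51391341 to 51403653), which acts at the Golgi and in autophagosome formation, had 2.29, 3.06, 2.49 and 1.39 CPM at 6m and 4.49, 5.18, 6.38 and 6.91 CPM at 24m. The ages did not overlap, and the log2 fold change was 1.31 ± 0.24 (adjusted p = 0.00111 by edgeR). Its paralog Rab33a (chromosome X, 47607444 to 47619118), which is found on secretory vesicles of growing axons, went the other way. Rab33a had 49.4, 51.5, 49.8 and 50.8 CPM at 6m, a narrow range, and 38.3, 32.0, 34.4 and 28.6 CPM at 24m, all lower. Its log2 fold change of -0.60 ± 0.10 (adjusted p = 0.000696) was just past the threshold, and the call was lost without 24m replicate 2 or 24m replicate 4, with library totals (-0.38), with the length trend removed (-0.21) and with the GC trend removed (-0.43).

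Rab43 and Rab2b, both of which act between the endoplasmic reticulum and the Golgi, also rose. Rab43 (chromosome 6, 87765835 to 87789146) had 2.76, 2.74, 3.28 and 2.66 CPM at 6m and 6.40, 5.98, 6.90 and 5.95 CPM at 24m, with little spread at either age. The log2 fold change was 1.14 ± 0.12 (adjusted p = 7.74e-05 by edgeR), and the gene shares exons with an annotated gene on its own strand, Gm45140. Rab2b (chromosome 14, 52499215 to 52517002) had 5.59, 8.08, 6.5 and 5.95 CPM at 6m and 10.6, 13.7, 15.1 and 15.6 CPM at 24m. Again no 24m library reached down to the 6m range, and the log2 fold change was 1.07 ± 0.16 (adjusted p = 0.000445). Its exons overlap those of Gm43766 and Tox4 on the other strand. The remaining genes of the class moved little or missed a threshold. Rab2a was separated between ages at 0.54 ± 0.14 (adjusted p = 0.00635) and was called without 24m replicate 1 (0.66) or 6m replicate 2 (0.62), with library totals (0.77), with DESeq2 on quantile-normalised counts (0.61) and with the length trend removed (0.63). Rab1a and Rab1b, the general Rabs of transport from the endoplasmic reticulum, had 0.07 ± 0.15 and 0.09 ± 0.12, with adjusted p of 0.703 and 0.546. Rab18 and Rab30 had 0.31 ± 0.14 and -0.11 ± 0.12, with adjusted p of 0.0728 and 0.408.

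In the early endosome class 2 of 7 genes were called higher and 0 lower, the higher share being near the 25.3% of all genes. The median log2 fold change was 0.22, or 0.44 with library totals and 0.36 with DESeq2 on quantile-normalised counts. The summed level was 281.7 ± 15.7 CPM at 6m and 389.6 ± 8.67 CPM at 24m. Rab5b (chromosome 10, 128512885 to 128532251), one of the Rab5 genes of endosome fusion, had 25.1, 33.2, 30.6 and 29.4 CPM at 6m and 80.3, 75.8, 78.5 and 79.8 CPM at 24m. Its 24m libraries lay close together and well above 6m, with replicate 1 the highest. The log2 fold change was 1.41 ± 0.10 (adjusted p = 1.94e-05 by edgeR). Rab31 (chromosome 17, 65958723 to 66079839), which carries cargo between the trans-Golgi network and endosomes, had 11.1, 16.4, 13.7 and 15 CPM at 6m and 38.7, 33.8, 34.8 and 34.2 CPM at 24m. Here too the ages were far apart, and the log2 fold change was 1.33 ± 0.12 (adjusted p = 4.91e-05). The other Rab5 genes changed less in size: the log2 value for Rab5c was 0.22 ± 0.08 (adjusted p = 0.0296) and for Rab5a 0.50 ± 0.23 (adjusted p = 0.0821). Rab5a overlapped between ages and was called only without 24m replicate 1 (0.66) and with library totals (0.72). Rab21, Rab22a and Rab20 had 0.12, -0.03 and -0.30, with adjusted p of 0.298, 0.802 and 0.207. Rab20 was called lower with DESeq2 on quantile-normalised counts (-0.58).

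For the recycling endosome the median log2 fold change was -0.31, or -0.08 with library totals, and 1 of 8 genes was called (12.5%, against 43.6% of all genes). Rab15 of the recycling endosome was the called gene and rose from 64.3 ± 5.23 to 102.3 ± 6.28 CPM (0.67 ± 0.09 on the log2 scale, edgeR adjusted p = 0.000211). Rab35 passed the adjusted p alone, at 0.52 ± 0.08 (adjusted p = 0.000438), with 37.5 to 43.4 CPM at 6m and 58.3 to 60.9 CPM at 24m. It was called with library totals (0.74), with the length trend removed (0.66, also with the block), with the GC trend removed (0.75) and with both removed (0.71). Rab4a, Rab4b, Rab14 and Rab11a, which return receptors from endosomes to the surface, passed it in the lower direction with log2 fold changes of -0.53, -0.47, -0.36 and -0.26 and adjusted p of 0.00328, 0.0173, 0.00997 and 0.0347. Leaving out 24m replicate 1 brought Rab4a to -0.63 and Rab4b to -0.62, past the fold-change threshold. Rab4b shares exons with 2 annotated genes on its own strand, Gm21983 among them, and its log2 fold change was 0.08 with the length trend removed. Rab11b stood at -0.06 ± 0.07 (adjusted p = 0.487), with 212.2 to 241.9 CPM at 6m and 201 to 218.4 CPM at 24m. Rab25, at 0.257 ± 0.0638 CPM at 6m and 0.146 ± 0.0947 CPM at 24m, had -0.79 ± 0.43 (adjusted p = 0.132), and it was called lower without 24m replicate 1 (-1.33).

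In the late endosome, lysosome and autophagy class 4 of 8 genes were called higher and 1 lower, and the median log2 fold change was 0.68. Over all genes 25.3% were called higher and 18.3% lower. The summed level was 399.4 ± 15.9 CPM at 6m and 365.1 ± 15.8 CPM at 24m, with ranges that overlapped, and on library totals the order turned (370.8 ± 27.4 and 393.7 ± 16.9 CPM). Rab9b (chromosome X, 135758896 to 135769504), a paralog of the Rab that returns cargo from late endosomes to the Golgi, had 0.808, 1.13, 1.10 and 0.620 CPM at 6m and 1.58, 3.10, 2.46 and 3.63 CPM at 24m. Replicate 1 was the lowest of 24m and still above all 6m libraries. The log2 fold change was 1.56 ± 0.29 (adjusted p = 0.00128 by edgeR). Rab39b (chromosome X, 74615652 to 74621853), in which mutations cause X-linked intellectual disability in humans, had 1.84, 2.89, 2.27 and 1.68 CPM at 6m and 3.82, 5.49, 5.2 and 6.76 CPM at 24m. The ages were again separate, and the log2 fold change was 1.29 ± 0.22 (adjusted p = 0.000820), with an overlapping gene, Gm15063, on the other strand. Rab39 and Rab7b were called at levels under 1 CPM, with log2 fold changes of 1.19 ± 0.29 and 0.92 ± 0.24 (adjusted p of 0.00571 and 0.00824). With a filter of 1 CPM in 4 libraries these 2 genes dropped out and the median of the class was 0.34, below the 0.54 of the endoplasmic reticulum and Golgi.

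Rab24 (chromosome 13, 55466132 to 55469793), an atypical Rab linked to autophagy, fell most. Rab24 had 193, 176.1, 185.4 and 195.1 CPM at 6m and 118.4, 89.8, 89.9 and 75.1 CPM at 24m, so even the highest 24m library, replicate 1, was well below 6m. The 6m level was 2.01 times that of 24m, and the log2 fold change was -1.01 ± 0.13 (adjusted p = 0.000201 by edgeR). It was -0.80 with library totals and -0.75 with the length trend removed, and was called in both. The exons of Rab24 overlap those of Prelid1 and Nsd1 on the other strand. Rab7, the central Rab of late endosomes, passed the adjusted p alone (0.43 ± 0.10, adjusted p = 0.00420), from 138.4 ± 16.5 to 186 ± 11.3 CPM. Rab12 did so too (0.26 ± 0.10, adjusted p = 0.0362), and Rab9 in the other direction (-0.35 ± 0.09, adjusted p = 0.00914). With library totals Rab7 was called higher (0.64).

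**Figure D2:**
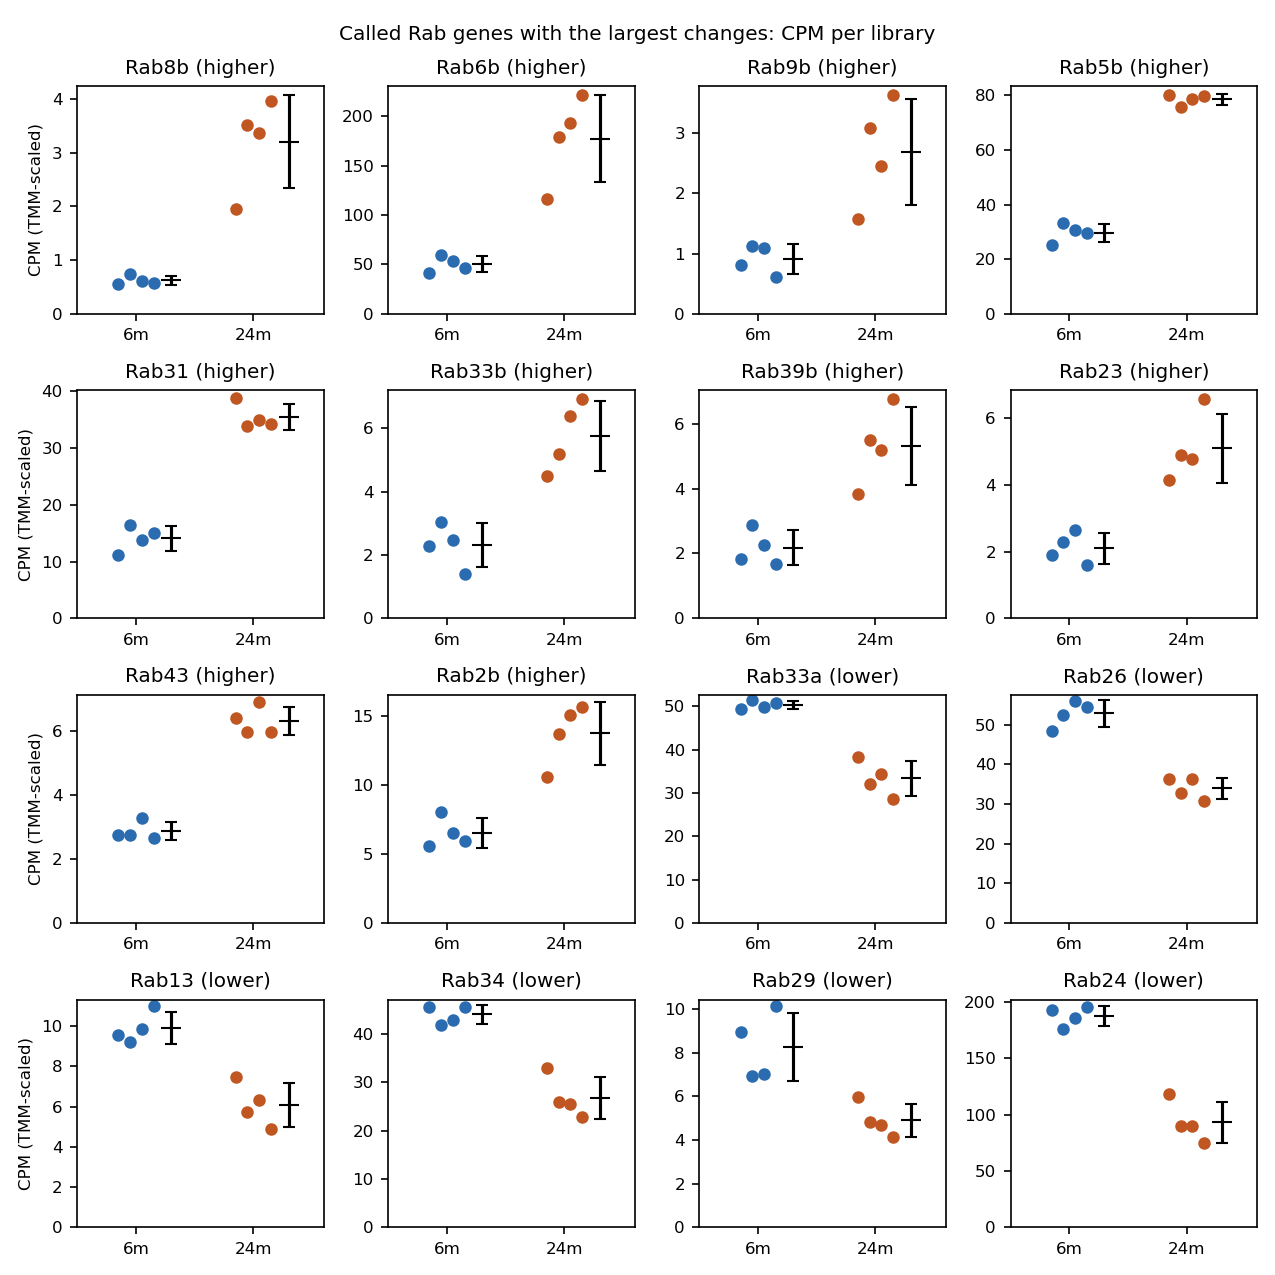
CPM (TMM-scaled, linear axis from 0) in each of the 4 libraries of 6m (blue) and 24m (orange) for the 10 Rab genes called higher with the largest log2 fold changes at a mean of at least 1 CPM and the 6 called lower, with points in replicate order and bars at the mean ± SD. In all 16 genes the ages do not overlap, and 24m replicate 1, the first orange point, is the lowest of its age in Rab8b (1.96 CPM) and the highest in Rab24 (118.4 CPM).

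Genes of regulated secretion had a summed level of 1489 ± 114 CPM at 6m and 1095 ± 128 CPM at 24m, which Rab3a dominated. Their median log2 fold change was 0.25, with 2 of 8 genes called higher and 1 lower, near the 25.3% and 18.3% of all genes. The median was 0.47 with library totals, 0.00 with DESeq2 on quantile-normalised counts and 0.08 with the length trend removed. The lower gene was Rab26 (chromosome 17, 24746215 to 24753184), which acts on secretory granules and synaptic vesicles. Rab26 had 48.3, 52.5, 56.0 and 54.5 CPM at 6m and 36.2, 32.7, 36.2 and 30.8 CPM at 24m, without overlap. Its log2 fold change was -0.64 ± 0.09 (adjusted p = 0.000307 by edgeR). The call was lost with library totals (-0.42), with the length trend removed (-0.26) and with the GC trend removed (-0.43). Rab26 shares exons with Traf7 on its own strand and with Gm33508 on the other. Rab27a and Rab27b, which dock secretory vesicles, were called higher with log2 fold changes of 0.91 ± 0.16 and 0.71 ± 0.27 (adjusted p of 0.00103 and 0.0431). Rab27a shares exons with 1 annotated gene on its own strand. Rab27b was the only called gene whose ages overlapped (1.06 to 2.17 CPM at 6m, 1.81 to 3.80 CPM at 24m), and its call was lost without any one of 6m replicates 1, 2 or 4 or 24m replicates 2, 3 or 4, and also with limma-voom, DESeq2 on quantile-normalised counts, the replicate block and either trend removed. Among the paralogs of Rab3a, Rab3b had -0.43 ± 0.09 (adjusted p = 0.00314), Rab3d 0.41 ± 0.14 (0.0271) and Rab3c 0.30 ± 0.16 (0.128). With library totals Rab3d was called higher (0.62). Rab37, another Rab of secretory granules, had 0.20 ± 0.11 (0.128).

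Constitutive exocytosis held the gene with the largest change of the family. Rab8b (chromosome 9, 66750892 to 66827023), which carries vesicles from the trans-Golgi network to the plasma membrane, had 0.564, 0.750, 0.614 and 0.575 CPM at 6m, from 37 to 53 counts per library. At 24m it had 1.96, 3.52, 3.36 and 3.96 CPM, from 203 to 345 counts. All 24m libraries were above all of 6m, with replicate 1 the lowest of 24m. The 24m level was 5.09 times that of 6m, or 2.35 ± 0.24 as a log2 fold change (edgeR adjusted p = 6.75e-05). This ranged from 2.11 to 2.58 over all alternatives. Rab8a, the more abundant paralog per kilobase, had 42.4 ± 2.97 and 41.3 ± 4.31 CPM (-0.04 ± 0.10, adjusted p = 0.760). Rab10, a close relative that also delivers vesicles to the surface, rose from 17.9 ± 2.05 to 30.7 ± 6.83 CPM (0.78 ± 0.16, adjusted p = 0.00240).

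Rab13 (chromosome 3, 90121002 to 90133696), known from tight junctions, had 9.56, 9.19, 9.89 and 11 CPM at 6m and 7.46, 5.74, 6.33 and 4.87 CPM at 24m. The ages did not overlap (log2 fold change -0.70 ± 0.14, edgeR adjusted p = 0.00216), and the call was lost with library totals (-0.49) and with the length trend removed (-0.23). In the class of lysosome-related organelles, Rab29 (chromosome 1, 131794932 to 131802006), which recruits Lrrk2 to membranes, had 8.96, 6.93, 7.03 and 10.1 CPM at 6m and 5.96, 4.84, 4.68 and 4.13 CPM at 24m. Its log2 fold change was -0.75 ± 0.17 (adjusted p = 0.00330), with no overlap between ages. The call was lost with library totals (-0.54) and with the length trend removed (-0.42). Rab32, which acts in melanosome formation, was called higher from 0.854 ± 0.0448 to 1.34 ± 0.164 CPM (0.65 ± 0.15, adjusted p = 0.00473), and the call was lost without 24m replicate 1 (0.58, just under the threshold), with DESeq2 on quantile-normalised counts (0.41) and with the GC trend removed (0.54). Its relative Rab38 was under 1 CPM (-0.20 ± 0.25, adjusted p = 0.511).

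Cilium genes were split. Rab23 (chromosome 1, 33758945 to 33781645), a negative regulator of hedgehog signalling, had 1.89, 2.29, 2.65 and 1.59 CPM at 6m and 4.15, 4.89, 4.78 and 6.58 CPM at 24m. All 24m libraries were higher, and the log2 fold change was 1.28 ± 0.20 (adjusted p = 0.000537 by edgeR). Rab34 (chromosome 11, 78079183 to 78083604), which is needed for cilium formation in some cell types, had 45.7, 41.9, 43.0 and 45.7 CPM at 6m and 32.9, 26.0, 25.4 and 22.9 CPM at 24m. Here all 24m libraries were lower, and the log2 fold change was -0.72 ± 0.11 (adjusted p = 0.000617). This call of Rab34 was lost with library totals (-0.51), with the length trend removed (-0.42) and with the GC trend removed (-0.53). Annotated genes overlap Rab23 and Rab34 on the other strand. Rab28 passed the adjusted p alone (-0.35 ± 0.09, adjusted p = 0.00875). The remaining 6 genes, Rab19, Rab36, Rab40b, Rab40c, Rab42 and Rab44, had log2 fold changes of -0.12 to 0.25 with none passing the adjusted p.

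Over all classes, 14 genes passed the adjusted p without reaching the fold-change threshold, 6 with higher and 8 with lower levels at 24m. With them, 24 Rab genes were higher and 14 lower on the adjusted p alone, where 32.7% and 29.9% of all genes were (62.6% in either direction). Replicate 1 of 24m was the 24m library nearest to 6m in 11 of the 18 genes called higher and in 5 of the 6 called lower. Without it, 19 Rab genes were called higher and 9 lower, and calls over all genes went from 4237 higher and 3058 lower to 4673 and 3592. Exons of 34 tested members overlap those of another annotated gene, 6 of them on the same strand, and how the counting used strand was not given in the sources used here. Among the 24 tested members without such an overlap, 10 were called higher and 3 lower, where 25.3% and 18.3% of all genes were, and the median was 0.38.

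Whether paralogs changed by the same factor was asked with the log2 ratio of the paralogs in each library, which needs no scaling factor. Of 22 pairs formed from 33 genes, 10 had ratios that did not overlap between ages (45.5%), where 52.4% of all pairs of tested genes did. Each of the 10 had an exact permutation p of 0.0286 (two-sided, n = 4 per age), the smallest that 70 assignments allow, and 0.0629 after Benjamini-Hochberg adjustment over the 22 pairs. No pair therefore passed 0.05 after adjustment, while 13 did with the length trend removed and 14 with the GC trend removed. Each separated pair has the same adjusted p, set by how many pairs are separated, so passing says nothing of the single pair. Pairs that share a gene are not independent. The ratio of Rab8b to Rab8a moved most. Its log2 value was -6.11, -5.79, -5.96 and -6.27 at 6m and -4.58, -3.45, -3.62 and -3.25 at 24m, a difference of 2.31. Replicate 1 was the nearest of 24m to 6m. Per kilobase, Rab8b was below Rab8a at both ages, at 0.629 and 6.31 CPM per kilobase at 24m.

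The ratio of Rab33b to Rab33a had log2 values of -4.42, -4.06, -4.31 and -5.16 at 6m and -3.09, -2.62, -2.43 and -2.05 at 24m, a difference of 1.94. For Rab9b over Rab9 the log2 ratio was -4.33, -3.89, -4.03 and -4.66 at 6m and -2.93, -2.20, -2.37 and -1.97 at 24m, a difference of 1.86. In both pairs the gene with the lower level per kilobase at 6m gained on the other. Rab31 over Rab22a had -0.85, -0.21, -0.45 and -0.56 at 6m and 0.95, 0.81, 0.86 and 0.76 at 24m, a difference of 1.37. Per kilobase of exons, Rab31 and Rab22a had 2.20 ± 0.35 and 2.01 ± 0.15 CPM at 6m, within their spread, and 5.53 and 1.97 at 24m. By canonical transcript length Rab22a was the higher at 6m (10.1 against 3.94 CPM per kilobase). Rab5c over Rab5b fell from between 2.34 and 2.59 to between 1.21 and 1.34, a difference of -1.19 with narrow spread at both ages. Rab6b over Rab6a went from -0.62 ± 0.10 to 0.25 ± 0.14 (SD), a difference of 0.87. Per kilobase, Rab6a was above Rab6b at both ages (16.5 and 6.54 CPM per kilobase at 6m, 31.3 and 23.1 at 24m). Rab3d over Rab3a differed by 0.87 as well, from -8.00 ± 0.17 to -7.13 ± 0.09. The other separated pairs were Rab3d over Rab3b (0.84), Rab38 over Rab32 (-0.79) and Rab2b over Rab2a (0.53).

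**Figure D3:**
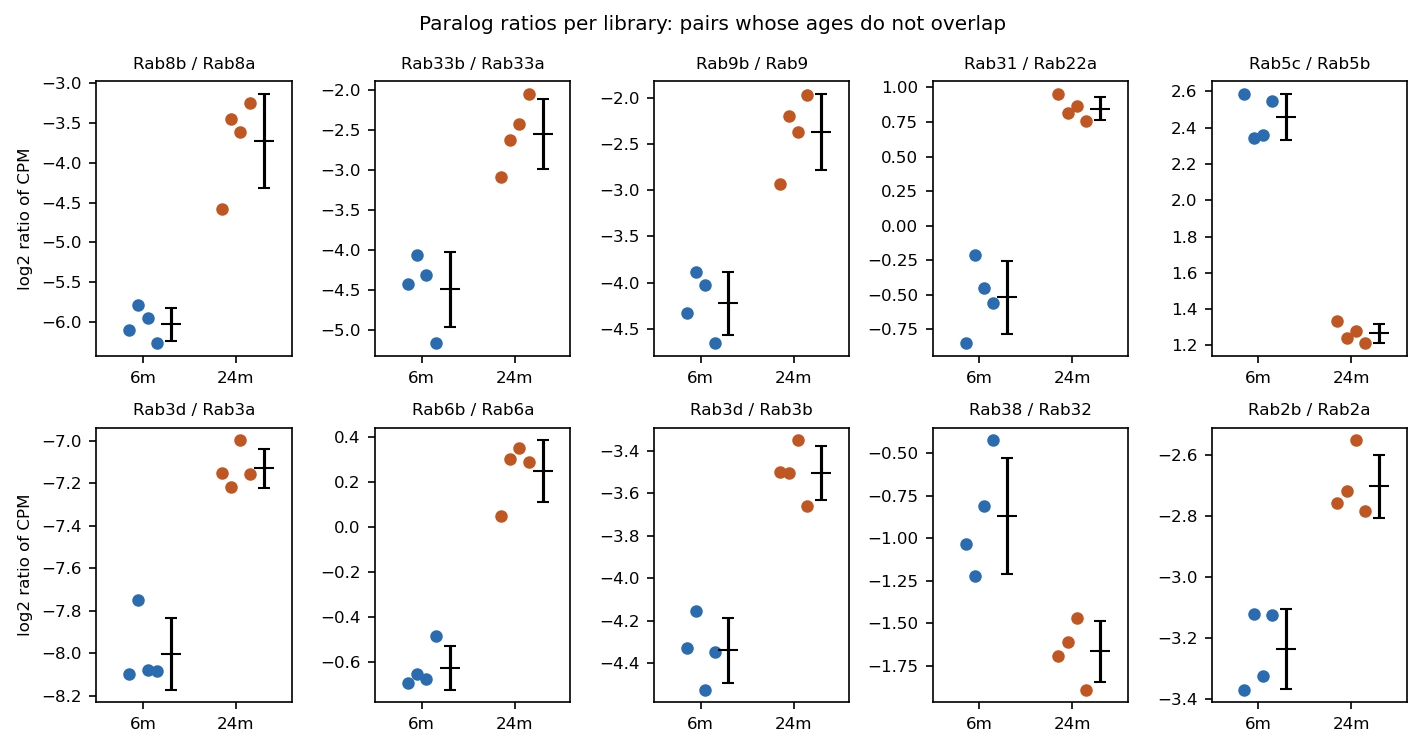
Log2 ratio of CPM of the paralogs named above each panel, in each of the 4 libraries of 6m (blue) and 24m (orange), with bars at the mean ± SD and a separate vertical scale for each panel. All 10 pairs shown were separated between ages, with differences from 2.31 (Rab8b over Rab8a) to 0.53 (Rab2b over Rab2a) in size.

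The 12 other pairs overlapped between ages. Among them the largest differences were 0.90 for Rab5b over Rab5a (exact permutation p = 0.0571, n = 4 per age), 0.74 for Rab3c over Rab3a (p = 0.0857, exact) and 0.70 for Rab3c over Rab3b (p = 0.0571, exact). The smallest were near 0. Rab1b over Rab1a differed by 0.02 between ages (exact permutation p = 0.971, n = 4 per age), Rab3b over Rab3a by 0.04 (p = 0.571, exact) and Rab4b over Rab4a by 0.04 (p = 0.543, exact). Rab27b over Rab27a, Rab39b over Rab39 and Rab11b over Rab11a had differences of -0.19, 0.23 and 0.20. In 14 of the 22 pairs the paralog with the lower level per kilobase at 6m rose more or fell less than the other, and in 8 pairs it rose less or fell more. By canonical transcript length these were 15 and 7 pairs, Rab31 and Rab22a being the pair whose order turned. With the trend over exonic length removed, the difference was 0.62 for Rab4b over Rab4a and 2.44 for Rab8b over Rab8a. Rab4b and Rab4a had exonic lengths of 1997 and 5759 bases and canonical transcripts of 1219 and 1598 bases.

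Coding sequences of the tested Rab genes had a median of 649.5 bases and ran from 588 bases in Rab31 to 1167 in Rab7 and 2922 in Rab44. The 3′ untranslated regions (3′ UTRs) of the canonical transcripts ran from 137 bases in Rab33a to 8596 bases in Rab30. Log2 fold change was related to 3′ UTR length across Rab genes with a Spearman rho of 0.53 and a Pearson r of 0.54 (n = 58 genes, with length on a log scale for r and no independence between genes). Over all genes tested the values were 0.54 and 0.51 (n = 16274). With coding length the rho was -0.15 over Rab genes and 0.39 over all genes. Of the 16 Rab genes with a 3′ UTR under 1000 bases, 0 were called higher and 5 lower, and the median log2 fold change was -0.47. In that range 5.15% of all genes were called higher and 31.3% lower. Of the 26 Rab genes with 2000 to 5000 bases, 16 were called higher and 0 lower, where 49.6% and 8.37% of all genes were, and the median was 0.84.

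All but 1 of the genes called higher had a 3′ UTR of 2000 bases or more (17 of 18, Rab2b being the other at 1952 bases), and 5 of the 6 called lower had one under 1000 bases, Rab29 being the other at 1688 bases. Over all genes, higher calls numbered 360, 1057, 2250 and 473 at under 1000, 1000 to 2000, 2000 to 5000 and 5000 or more bases. Lower calls over all genes numbered 2186, 337, 380 and 62 in these ranges, so most of them also lay under 1000 bases. The paralogs Rab33a and Rab33b had 137 and 2436 bases. Rab8a and Rab8b did not differ in this way, at 3767 and 4055 bases, nor did Rab9, whose 5296 bases exceeded the 2897 of Rab9b. Among the 6 genes of 5000 bases or more, 1 was called higher and 0 lower and the median was 0.12, with Rab30, Rab3c, Rab18, Rab11b and Rab9 not called. Over all genes of that length 55.3% were higher and 7.25% lower and the median was 0.75, a difference that was not tested. The 10 genes between 1000 and 2000 bases had 1 called in each direction and a median of 0.09, where 27.2% of all genes were higher and 8.68% lower with a median of 0.22. Exonic length, the union over all transcripts of a gene, is another measure than 3′ UTR length. Its rho with log2 fold change was 0.25 over Rab genes and 0.42 over all genes. With the trend over exonic length removed from every library, 19 Rab genes were called higher and 4 lower, and over all genes 4042 were higher and 2218 lower. Of the original lower calls this kept Rab24 and lost Rab13, Rab26, Rab29, Rab33a and Rab34, while Rab9, Rab14 and Rab28 became called. Exonic lengths of Rab9, Rab14 and Rab28 were 14701, 15266 and 13047 bases, while their canonical transcripts had 6288, 4546 and 1675 bases.

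**Figure D4:**
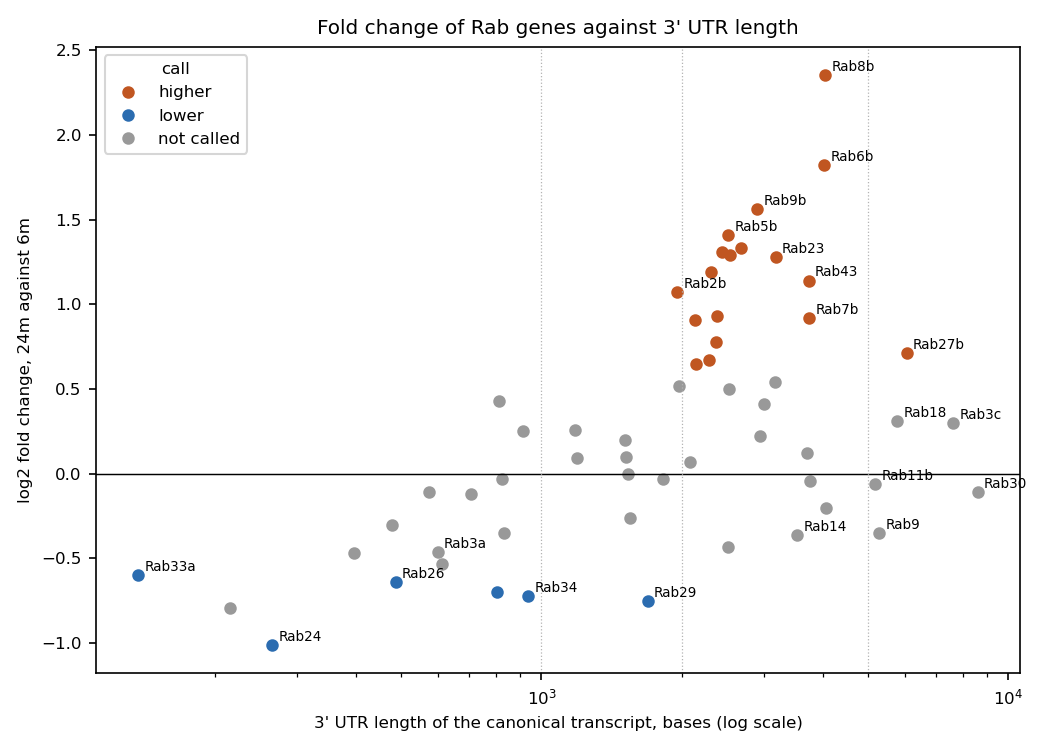
Log2 fold change at 24m against 6m (y axis) of the 58 tested Rab genes by the 3′ UTR length of the canonical transcript in bases (x axis, log scale), with dotted lines at 1000, 2000 and 5000 bases and selected genes labelled. Called genes with higher levels lie at 1952 bases or more, and those with lower levels at 1688 bases or fewer.

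The genes that load, switch off, anchor and read Rab proteins were taken from the same fit. Of 128 such regulators, all tested, 59 were higher and 9 lower, where 25.3% and 18.3% of all genes were. Together 53.1% were called, against 43.6% of all genes, and the median log2 fold change was 0.55. The number of lower regulators was 3 with library totals and 17 with DESeq2 on quantile-normalised counts. The 36 GAPs had 21 higher and 2 lower and the 45 effectors 21 and 3. Of the 35 GEFs 13 were higher and 2 lower (42.9% called, near the share of all genes), and of 5 kinases and phosphatases 2 and 2. With the length trend removed, the GEF genes Gapvd1 (0.49), Dennd1a (0.38), Ric1 (0.56), Sbf2 (0.45) and Trappc10 (0.53) lost their higher calls. The GAP genes Sgsm2 (0.49), Tbc1d15 (0.24), Tbc1d22a (0.33) and Tbc1d23 (0.49) lost theirs too. The other GEFs and GAPs called higher kept their calls. Chm, which encodes Rab escort protein 1, had the largest log2 fold change of the list, 2.46 ± 0.40 (edgeR adjusted p = 0.000698). Its levels were 0.701, 1.25, 0.962 and 0.303 CPM at 6m and 2.46, 4.99, 4.05 and 6.24 CPM at 24m, with all 24m libraries above 6m. The TBC domain genes Tbc1d24 and Tbc1d30 followed at 2.40 ± 0.21 and 2.30 ± 0.22 (adjusted p of 4.11e-05 and 5.59e-05), from 2.71 ± 0.493 to 14.3 ± 3.63 CPM and from 7.60 ± 1.28 to 37.3 ± 10.7 CPM.

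The remaining genes of prenylation and membrane recycling changed less. Chml, the other escort protein gene, was called higher (0.74 ± 0.21, edgeR adjusted p = 0.0112), with 1.84 to 2.19 CPM at 6m and 2.06 to 4.12 CPM at 24m, where only replicate 1 lay within the 6m range. The call of Chml was lost with the GC trend removed (0.51), and its log2 fold change ran from 0.39 to 0.97 over the alternatives. Gdi2, a GDI gene, passed the adjusted p alone, at 0.57 ± 0.10 (106.4 ± 11.1 to 158 ± 15.7 CPM, adjusted p = 0.00114). Gdi2 was called with library totals (0.79) and without 24m replicate 1 (0.62), and stood at 0.25 with the length trend removed. Rabif, a chaperone of nucleotide-free Rab proteins, also passed the adjusted p alone, at 0.29 ± 0.10 (adjusted p = 0.0226). Over the alternatives the log2 fold change of Rabif ran from 0.002 to 0.51. Of the subunits of Rab geranylgeranyl transferase, Rabggtb had -0.57 ± 0.07 (adjusted p = 0.000180), with 63.3 to 69.7 CPM at 6m and 44.2 to 46.3 CPM at 24m and a call with the GC trend removed (-0.69), and Rabggta -0.16 ± 0.09 (adjusted p = 0.139). Among called regulators with a mean of at least 1 CPM, those that fell most were Ppm1j, a phosphatase gene (-1.23 ± 0.26, adjusted p = 0.00238), Rilp, an effector of Rab7 (-0.92 ± 0.20, adjusted p = 0.00306, with -0.35 and no call once the length trend was removed), and Evi5, a TBC domain gene (-0.83 ± 0.16, adjusted p = 0.00168).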

How the data were processed

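Poly(A) RNA was sequenced from 4 brains of each age. Per Ensembl gene and library, the authors deposited raw counts, without normalisation or pooling of replicates. The authors trimmed reads with Trim Galore 0.4.11, aligned them to GRCm39 with HISAT2 2.1.0 and counted them with featureCounts. How strand and multimapping reads were handled was not given in the sources used here, which affects overlapping genes and close paralogs. Members and gene lists (organelle classes, paralog pairs, regulators and cell type markers) were chosen with earlier results of these data known.

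A gene was kept if 4 or more of the 8 libraries had over 5 counts. All kept genes were fitted together with edgeR 4.0.16 (R 4.3.3, limma 3.58.1), with age as the term and TMM scaling, and p-values were adjusted over all genes tested. Standard errors were derived from the log2 fold change and the F statistic. Log2 ratios of paralogs used CPM with a prior count of 2 and exact permutation. Gene models came from a later GENCODE release than that of the authors, on the same assembly, and 22281 of 22430 genes matched it. Level per kilobase used the union of exons. Replicates were separate animals, and no pair agreed within sampling noise (chi-square per degree of freedom 8.18 to 417 over 12 pairs). The script was tested on simulated data.

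Values in every library were given for genes that were called and averaged 1 CPM or more (the 10 of largest and the 10 of smallest log2 fold change), the most abundant genes and the most divergent paralogs. The 3 highest and 3 lowest called regulators of at least 1 CPM and the prenylation and GDI genes were named, except 1 gene that is not reported here. Other genes were chosen with their values in view. The alternatives tried were other scaling factors, limma-voom, DESeq2 1.42.0 (also on quantile-normalised counts, without the row-wise median step that the study added), different filters and thresholds, omission of each library, the replicate number as a block, and smoothed trends over exonic length or GC content removed per library.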

Additional observations from a re-analysis of the deposited data

Results flagged for a closer look

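In 8 Rab genes, 1 library stood apart from the other 3 of its age by Dixon's criterion for groups of 4. Chance flags about 1 in 20 groups, and 320 values, the highest and the lowest of each age, were tried here over Rab genes and paralog ratios. At 24m, replicate 1 was high for Rab32 (1.58 CPM, the next library at 1.27), for Rab28 (66.3 CPM, next 54.4) and for Rab3b (88.3 CPM, next 72.7), and it was low for Rab11a (34.6 CPM, next 43.2). In replicate 4 of 24m, Rab39 was high (0.413 CPM, next 0.262) and Rab11b low (201 CPM, next 217). Replicate 3 of 6m was high for Rab43 (3.28 CPM, next 2.76) and Rab36 (15.8 CPM, next 14).

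Paralog ratios had 3 such values, all at 6m. The log2 ratio of Rab5b to Rab5a was 1.22 in replicate 4 (next 0.41), which brought that library into the 24m range of 1.19 to 2.02 and left the pair unseparated between ages. Rab11b over Rab11a was 2.33 in replicate 4 (next 2.13), and Rab3d over Rab3a was -7.75 in replicate 2 (next -8.08).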

How the results depend on the processing

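Most values kept their direction and their side of the thresholds. Of 24 called Rab genes, 11 kept their call under all 22 alternatives and 15 under all but the stricter fold-change threshold, and none changed sign. Rab39 and Rab7b were not tested under the filter of 1 CPM. Leaving out single libraries gave 17 to 19 Rab genes higher and 5 to 9 lower, with medians of 0.139 to 0.197. Correlations of same-numbered deviations were 0.27, 0.14, 0.08 and -0.35, and those of unlike numbers ran from -0.40 to 0.38, so no pairing by replicate number was seen. Whether equal numbers share a handling batch was not tested. With the replicate number as a block 17 Rab genes were higher and 6 lower, the call of Rab27b being lost. Low counts limit Rab7b, Rab19, Rab25, Rab38, Rab39 and Rab44. The causes of the shifts below were not tested.

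With library totals alone 1 Rab gene and 3 regulators were lower, and medians were 0.38 over Rab genes, 0.77 for the endoplasmic reticulum and Golgi, 0.44 for the early endosome, -0.08 for the recycling endosome, 0.89 for the late endosome class, 0.47 for regulated secretion, 0.59 for constitutive exocytosis, 0.02 for lysosome-related organelles, -0.14 for the cilium and 0.21 for the remaining genes. DESeq2 on quantile-normalised counts gave medians of 0.087 over Rab genes, 0.36 for the early endosome and 0.00 for regulated secretion, with 17 regulators lower. With a filter of 1 CPM the late endosome median was 0.34 and that of the remaining genes 0.04. On the adjusted p alone 14 Rab genes and 18 regulators were lower. At a fold-change threshold of 1 (log2), 11 Rab genes were higher and 1 lower, and 32 regulators were higher and 1 lower. Removing the length trend gave medians of 0.239 over Rab genes, -0.19 for the recycling endosome, 0.08 for regulated secretion and 0.22 for the remaining genes, with the block added 0.240, 0.07 for regulated secretion and 0.21 for the remaining genes. Removing the GC trend left 3 Rab genes lower, with medians of -0.52 for the cilium and 0.13 for the remaining genes. Removing both gave 0.274 over Rab genes, -0.17 for the recycling endosome, 0.10 for regulated secretion and 0.24 for the remaining genes. Members without exonic overlap, an alternative chosen after seeing the data, gave 10 higher, 3 lower and a median of 0.383. Without single libraries the median of the remaining genes was -0.03 to 0.05, and 5 to 11 regulators were lower, with 5 without 6m replicate 4 or 24m replicate 4.

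The adjusted p of a paralog pair is set by how many pairs are separated. With the length trend removed 13 pairs were at 0.05 or less by exact permutation, with differences as follows: Rab2b/Rab2a (0.46), Rab3d/Rab3a (0.50), Rab3d/Rab3b (0.60), Rab4b/Rab4a (0.62), Rab5b/Rab5a (1.09), Rab5c/Rab5b (-1.25), Rab6b/Rab6a (0.61), Rab8b/Rab8a (2.44), Rab9b/Rab9 (2.33), Rab11b/Rab11a (0.36), Rab33b/Rab33a (1.80), Rab31/Rab22a (1.6) and Rab38/Rab32 (-0.90). With the GC trend removed the 14 pairs were Rab1b/Rab1a (0.43), Rab2b/Rab2a (0.53), Rab3d/Rab3a (0.81), Rab3d/Rab3b (0.98), Rab4b/Rab4a (0.22), Rab5b/Rab5a (1.11), Rab5c/Rab5b (-1.06), Rab6b/Rab6a (1.12), Rab8b/Rab8a (2.04), Rab9b/Rab9 (1.84), Rab11b/Rab11a (0.35), Rab33b/Rab33a (1.66), Rab31/Rab22a (1.38) and Rab38/Rab32 (-0.87). Rab3b/Rab3a turned to -0.10 and -0.18 under these removals, and Rab5c/Rab5a to 0.05 with the GC trend removed. Class sums on library totals and the order of paralogs by canonical length were added after seeing the data. Divided by canonical transcript length, 6m levels per kilobase were 901 for Rab3a, 147.3 for Rab4b, 155.8 for Rab24, 82.5 for Rab1b and 36.5 for Rab11b. The summed share of Rab counts differed by 395.2 CPM between ages on library totals and by -149.6 CPM after TMM scaling.

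Log2 fold changes of 16 uncalled Rab genes changed sign under at least 1 of the 22 alternatives, giving 48 values of changed sign. With library totals they were 0.21 for Rab36, 0.20 for Rab42, 0.19 for Rab22a, 0.18 for Rab8a, 0.16 for Rab11b, 0.09 for Rab19 and Rab44, 0.11 for Rab30 and 0.02 for Rab38. Quantile normalisation gave -0.08 for Rab37 and 0.09 for Rab11b. Rab36 was 0.001 with limma-voom and 0.01 without a filter. Without single libraries the ranges were -0.33 to 0.08 for Rab19, -0.04 to 0.21 for Rab1a, -0.02 to 0.16 for Rab1b, -0.06 to 0.03 for Rab22a, -0.03 to 0.05 for Rab36, -0.09 to 0.05 for Rab42, -0.34 to 0.08 for Rab44 and -0.09 to 0.01 for Rab8a. With the length trend removed, with the block added, and with length and GC trends removed, they were -0.08, -0.08 and -0.16 for Rab3c, 0.43, 0.42 and 0.43 for Rab42, 0.32, 0.29 and 0.32 for Rab19, 0.17, 0.18 and 0.23 for Rab20, and 0.08, 0.08 and 0.10 for Rab4b. Removing the GC trend gave -0.03 for Rab21, -0.13 for Rab1a, 0.15 for Rab36, 0.03 for Rab8a and 0.12 for Rab44.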
